A study of Mus musculus with 12 samples.

Results

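The comparison described here is that of cultured mouse short-term hematopoietic stem cells (ST-HSCs) with and without nicotinamide riboside (NR). It uses the 3 control and the 3 NR libraries labelled as ST-HSCs, 6 of the 12 libraries of the study, and describes all expressed genes. NR is a vitamin B3 compound that cells convert to nicotinamide adenine dinucleotide (NAD), the carrier of electrons in energy metabolism and the substrate of sirtuins and PARP enzymes. The other 6 libraries are long-term HSCs (LT-HSCs) with and without NR. They enter the estimate of the spread and the comparison of the effect of NR between both cell types at the end.

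All cells came from mouse bone marrow, and the labels give no strain, genotype, age or sex. ST-HSCs were sorted as lineage-negative, Kit+, Sca1+, CD150+, CD48- and CD34+ cells. LT-HSCs were sorted with the same markers but without CD34. Both groups of ST-HSCs were cultured for 2 days in Stemline II with stem cell factor (SCF, 100 ng/ml) and Flt3 ligand (2 ng/ml). The NR group had 1 mM NR, renewed at 24 h, and the control group had none. RNA was taken from whole cultures at the end, so the libraries hold the sorted cells and their progeny after 2 days in culture. Each cDNA was made from 2.5 ng of RNA with the SMART-seq v4 kit. No label says that the 3 libraries of a group came from separate mice or cultures, so the p-values describe the spread among these libraries only, and that spread may be technical.

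Hematopoietic stem cells form all blood lineages. Most are quiescent in the marrow, with low rates of protein synthesis and a reliance on glycolysis, and culture with cytokines draws them into the cell cycle. ST-HSCs give rise to blood for a limited time after transplantation, while LT-HSCs can do so for the life of the animal. Autophagy and low mitochondrial activity have been described in cells that keep stem cell function. Stem cell function itself was not measured in these libraries.

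The 6 ST-HSC libraries held 27.1 M to 35.5 M counts in genes. Reads in no annotated gene made up 11.1% to 17.0% of reads in the control libraries and 9.17%, 13.0% and 26.2% in NR libraries 1, 2 and 3, so NR library 3 stood apart. The group means of this share were 14.9% ± 3.30 and 16.1% ± 8.95 (SD, n = 3; exact permutation test, two-sided p = 0.9, smallest p possible 0.1). Olfactory receptor genes followed this share, with 295 CPM in NR library 3 and 14.1 CPM in NR library 1. For this reason genes with a mean under 5 CPM (counts scaled to 1 M counts in genes per library) over the 6 libraries were left out, which left 10373 genes. On the first principal component of these genes, with 62.7% of the variance, the control libraries lay between -21.07 and -18.83 and the NR libraries at 30.28, 15.09 and 13.38. The second (21.2%) set NR library 1 (18.30) against NR library 3 (-19.33).

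The sort markers were partly present after culture. Levels are given as CPM scaled by edgeR's TMM factors, which compare libraries but not genes of different length. Kit stood at 1308, 1339 and 1408 CPM in the control libraries and 1623, 1469 and 1635 CPM in the NR libraries, with a log2 change of 0.22 ± 0.06 (± SE) and an edgeR adjusted p of 0.014. Cd34 stood at 621, 597 and 628 CPM in the control libraries and 757, 707 and 713 CPM in the NR libraries, a log2 change of 0.24 ± 0.06 (edgeR adjusted p = 0.0072). Neither gene's groups overlapped, and both rose with NR. Slamf1, which encodes CD150, stood at 18.4, 19.9 and 17.3 CPM without NR and 10.5, 13.1 and 13.8 CPM with it and fell (-0.58 ± 0.13, edgeR adjusted p = 0.0025). Ly6a, the gene of Sca1, was low, at 7.18, 5.43 and 5.73 CPM without NR and 10.8, 6.56 and 7.53 CPM with it, and its groups overlapped (0.44 ± 0.22, edgeR adjusted p = 0.13). Cd48, against which the cells were sorted, stood at 3.71 to 5.99 CPM in control and 2.06 to 2.99 CPM in NR libraries without scaling and lay below the filter. The rise of Kit did not pass without control library 1 (edgeR adjusted p = 0.0559), with the looser filter (0.148) or with no filter (0.288). That of Cd34 did not pass with the looser filter (edgeR adjusted p = 0.118) or with no filter (0.149).

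NR changed a large share of the expressed genes by small amounts. Of the 10373 genes tested, 1934 (18.6%) were higher and 2077 (20%) lower with NR at a Benjamini-Hochberg adjusted p under 0.05 in edgeR's quasi-likelihood test. The median size of a called change was 0.37 on the log2 scale, where 1 stands for a 2-fold difference. Changes from 2-fold to 4-fold numbered 131 among the higher and 70 among the lower genes, and 22 and 12 genes changed at least 4-fold. Control and NR libraries did not overlap in 5320 genes (51.3%), of which 3878 were also called. Genes called lower had a higher median control level (104 CPM) than genes called higher (39.1 CPM) or not called (47.5 CPM). The split between higher and lower genes rested on the filter. With edgeR's own looser filter, which kept 19830 genes, 1155 were higher and 2193 lower, so that 34.5% of called genes were higher instead of 48.2%.

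**Figure D1:**
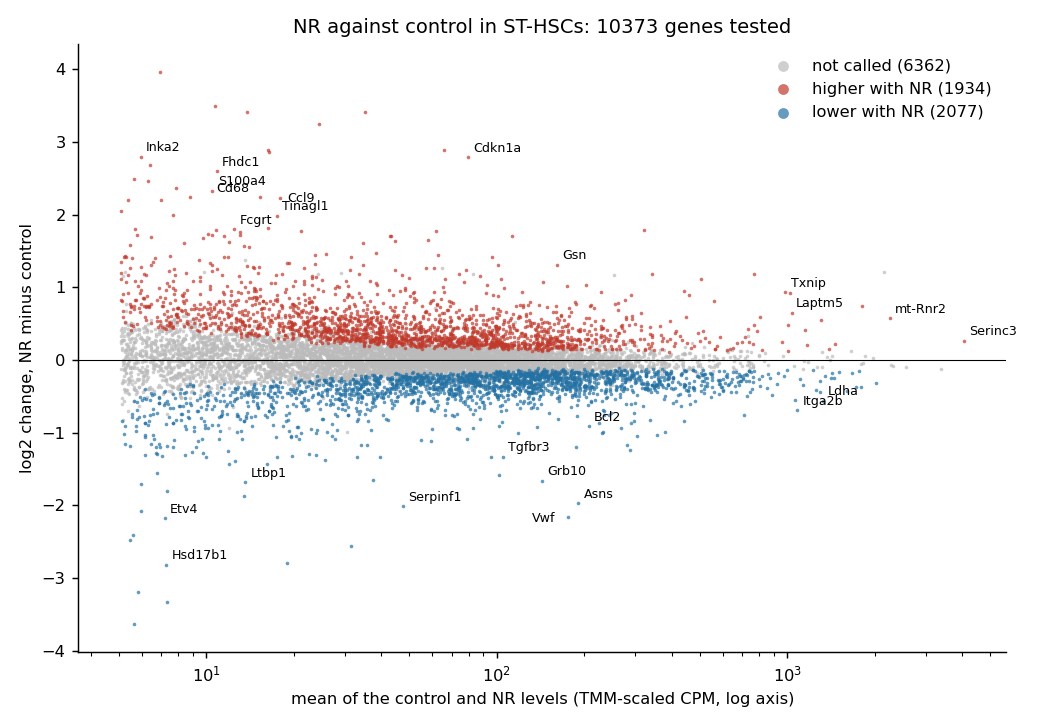
Log2 change with NR (y axis, NR minus control) against the mean level in ST-HSC libraries (x axis, TMM-scaled CPM, log axis) for the 10373 genes tested, each point 1 gene. Genes called higher (1934, red) and lower (2077, blue) lay on both sides at all levels, and most changes were smaller than 1 on the log2 scale.

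Stress responses, in 3 gene groups, took part and are not described further: p53 targets (35 of 38 tested members higher, median log2 change 1.34), integrated stress response genes (39 of 45 lower, -0.84) and NRF2 and antioxidant genes (23 of 37 higher, 0.45). Together 103 of their 118 tested genes were called. The median over all 10373 genes was -0.0045. The genes below lie outside these groups unless said otherwise. The groups are lists of chosen genes, and whether genes outside them belong to the same responses was not tested. For each further list the counts of called members are given beside the number tested and the list's median log2 change. These counts stand against 18.6% higher and 20% lower over all genes tested. A member described as named afterwards was picked after its values were seen.

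Among the largest rises were genes of the cell surface and of myeloid cells. The filter on the mean over both groups bears on them, since 7 of the 12 largest rises given in this and the next paragraph had a control mean under 5 CPM and reached the filter only through the NR libraries, where they had to be higher. These are Procr, Csf2rb2, S100a4, Clec12a, Inka2, Fhdc1 and Ahnak2, all of which were also called with no filter. The same holds for 94 of the 1934 genes called higher (4.86%), Tyrobp and Traf1 among them. Procr, which encodes the endothelial protein C receptor, a surface marker of HSCs, stood at 1.37, 2.54 and 1.87 CPM in the control libraries and 9.80, 5.05 and 11.6 CPM in the NR libraries, a log2 change of 2.20 ± 0.27 (edgeR adjusted p = 2.7e-05). Csf2rb2, the mouse IL-3 receptor beta chain, stood at 2.36, 2.96 and 2.35 CPM in the control libraries and 17.0, 6.09 and 16.6 CPM in the NR libraries (2.37 ± 0.32, edgeR adjusted p = 5.0e-05). For both genes every NR library lay above every control library, and NR library 2 was the lowest of the 3. Csf2rb2 has a near-identical neighbour, Csf2rb (1.27, named afterwards), and reads shared by both could not be told apart here. Cd68, a lysosomal glycoprotein of macrophages, stood at 5.81, 5.29 and 4.94 CPM in the control libraries and 34.7, 18.1 and 23.1 CPM in the NR libraries (2.24 ± 0.21, edgeR adjusted p = 2.1e-06). Ccl9, a chemokine of myeloid cells, stood at 7.41, 5.46 and 6.09 CPM in the control libraries and 43.0, 19.9 and 25.9 CPM in the NR libraries (2.23 ± 0.33, edgeR adjusted p = 0.00011). Both were separate between the groups and highest in NR library 1. S100a4, a calcium-binding protein, rose from 3.49 ± 0.488 to 17.5 ± 5.23 CPM (mean ± SD, n = 3; 2.33 ± 0.20), and Clec12a, an inhibitory lectin receptor of myeloid cells, rose from 1.98 ± 0.322 to 8.22 ± 2.38 CPM (2.05 ± 0.46). Fcgrt, the receptor that recycles IgG and albumin, rose by 1.80 ± 0.18.

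The other large rises were those of genes of the cytoskeleton, matrix and metabolism. Inka2, an inhibitor of the kinase PAK4, stood at 0.638, 2.33 and 1.54 CPM in the control libraries and 11.9, 9.45 and 9.86 CPM in the NR libraries, a log2 change of 2.80 ± 0.30 (edgeR adjusted p = 8.3e-06), the largest rise outside the stress groups among genes that met the naming rule. Fhdc1, a formin that acts on actin and microtubules, stood at 2.11, 4.51 and 2.65 CPM without NR and 15.4, 12.5 and 28.1 CPM with it (2.60 ± 0.31, edgeR adjusted p = 2.2e-05). Tinagl1, a secreted matrix protein, stood at 5.81, 7.30 and 8.08 CPM without NR and 23.8, 30.7 and 29.5 CPM with it (1.98 ± 0.15, edgeR adjusted p = 3.5e-07). In each of these genes the 3 NR libraries lay above the controls, and those of Tinagl1 lay within a narrow range. Aldoc, an aldolase of glycolysis, rose from 7.24 ± 0.966 to 25.5 ± 9.59 CPM (1.82 ± 0.20), and Ahnak2, a large scaffold protein, rose from 2.53 ± 0.613 to 8.81 ± 1.72 CPM (1.80 ± 0.24).

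The largest falls included growth factor signalling, platelet and matrix genes. Of the 12 described, 7 (Etv4, Hsd17b1, Ptprf, Slc14a2, Pnck, Adam11 and Ripor3) had an NR mean under 5 CPM and reached the filter only through the control libraries, as did 52 of the 2077 genes called lower (2.5%). Vwf, von Willebrand factor, which marks platelets, endothelium and platelet-primed HSCs, stood at 295, 298 and 266 CPM in the control libraries and 45.4, 82.1 and 64.7 CPM in the NR libraries, a log2 change of -2.16 ± 0.15 (edgeR adjusted p = 1.6e-07). Grb10, an imprinted adaptor that restrains insulin and growth factor receptors, stood at 232, 195 and 225 CPM without NR and 57.2, 67.7 and 81.4 CPM with it (-1.66 ± 0.10, edgeR adjusted p = 4.1e-08). Serpinf1, the secreted pigment epithelium-derived factor, stood at 73.0, 73.8 and 82.2 CPM without NR and 16.5, 19.02 and 21.5 CPM with it (-2.01 ± 0.12, edgeR adjusted p = 3.8e-08). These 3 genes were well expressed, and their groups lay far apart. Etv4, an ETS transcription factor induced by ERK signalling, stood at 12.2, 11.9 and 11.2 CPM without NR and 2.91, 2.29 and 2.60 CPM with it (-2.18 ± 0.19, edgeR adjusted p = 1.4e-06). Hsd17b1, an enzyme of estradiol synthesis, stood at 13.0, 11.9 and 13.3 CPM without NR and 0.791, 1.79 and 2.93 CPM with it (-2.82 ± 0.31, edgeR adjusted p = 8.9e-06). Ptprf, a receptor tyrosine phosphatase, stood at 9.45, 8.35 and 10.3 CPM without NR and 0, 2.29 and 3.15 CPM with it (-2.41 ± 0.72, edgeR adjusted p = 0.017). For these low genes too, every NR library lay below the controls, but Ptprf had no read in NR library 1 and did not pass in DESeq2 (adjusted p = 0.109) or with the looser filter (edgeR adjusted p = 0.0564).

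Mrvi1, a target of cGMP-dependent kinase in platelets, fell from 21.1 ± 3.54 to 5.79 ± 2.60 CPM (-1.88 ± 0.27), and Ltbp1, which binds latent TGF-beta, fell from 20.7 ± 3.21 to 6.48 ± 2.78 CPM (-1.68 ± 0.26). Smaller in level were the urea transporter Slc14a2, which fell from 9.12 ± 0.866 to 2.80 ± 0.682 CPM (-1.71 ± 0.24), the calmodulin-dependent kinase Pnck, which fell from 10.1 ± 1.15 to 3.44 ± 0.593 CPM (-1.56 ± 0.22), Adam11 (-2.07 ± 0.44) and Ripor3 (-1.80 ± 0.21). In all 6 the control and NR libraries did not overlap.

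**Figure D2:**
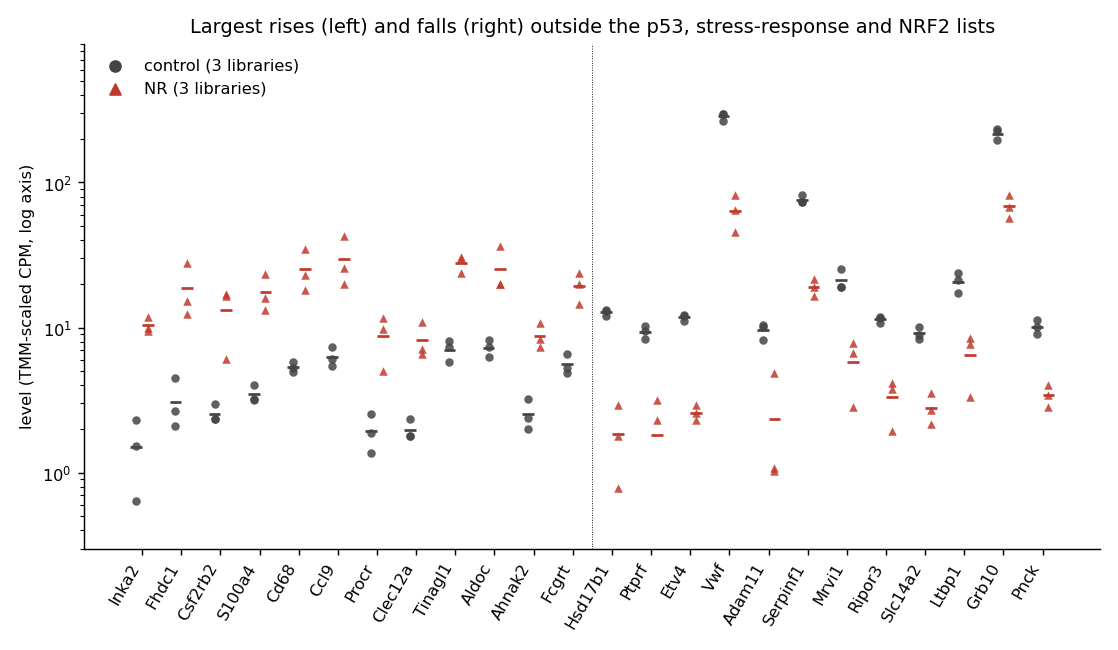
Level (y axis, TMM-scaled CPM, log axis) in each of the 3 control (circles) and 3 NR (triangles) ST-HSC libraries for the 12 largest rises and the 12 largest falls outside the stress groups, with group means as bars. The groups did not overlap in any of these genes, which the choice of the genes requires. The NR library of Ptprf with 0 CPM is not drawn on the log axis.

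Among the most abundant genes the changes were smaller but precise. Ldha, lactate dehydrogenase A, stood at 1572, 1584 and 1587 CPM in the control libraries and 1090.1, 1048 and 1074 CPM in the NR libraries, a log2 change of -0.56 ± 0.05 (edgeR adjusted p = 1.1e-06). Itga2b, the CD41 integrin chain of megakaryocytes and early progenitors, stood at 1392, 1362 and 1258 CPM without NR and 729, 935 and 824 CPM with it (-0.69 ± 0.08, edgeR adjusted p = 1.6e-05). Both fell, with the groups apart. Eif5a, a translation factor, fell from 1844 ± 26.3 to 1367 ± 25.1 CPM (-0.43 ± 0.05), Atp5b, the beta subunit of ATP synthase, from 2021 ± 36.9 to 1565 ± 43.5 CPM (-0.37 ± 0.04), and the RNA-binding proteins Hnrnpu and Hnrnpa2b1 from 2251 ± 36.3 to 1799 ± 7.88 CPM (-0.32 ± 0.04) and from 1946 ± 35.2 to 1501 ± 23.2 CPM (-0.37 ± 0.04). Laptm5, a lysosomal membrane protein of blood cells, stood at 706, 726 and 694 CPM without NR and 1448, 1241 and 1341 CPM with it (0.92 ± 0.05, edgeR adjusted p = 3.4e-08). Txnip, which binds thioredoxin and limits glucose uptake, stood at 812, 577 and 642 CPM without NR and 1452, 1198 and 1227 CPM with it (0.93 ± 0.15, edgeR adjusted p = 0.00028). Both rose in all 3 NR libraries. Pkm, pyruvate kinase, rose from 1056 ± 36.1 to 1551 ± 177 CPM (0.55 ± 0.06), Lmo2, a bridging factor of HSC transcription complexes, from 837 ± 10.7 to 1173 ± 62.1 CPM (0.49 ± 0.05), and Serinc3, a membrane protein, from 3686 ± 109 to 4438 ± 321 CPM (0.27 ± 0.05; not called with the looser filter, edgeR adjusted p = 0.075, or with no filter, 0.168). The mitochondrial 16S ribosomal RNA mt-Rnr2 stood at 1815, 1917 and 1699.7 CPM without NR and 3119.7, 2624 and 2348 CPM with it (0.57 ± 0.09, edgeR adjusted p = 0.00012), with all NR libraries above the controls.

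Genes that build ribosomes were lower with NR. Of 46 tested ribosome biogenesis genes 35 were lower and 11 did not pass (median -0.32). Npm1, nucleophosmin of the nucleolus, stood at 677, 661 and 683 CPM in the control libraries and 496, 502 and 463 CPM in the NR libraries (-0.47 ± 0.05, edgeR adjusted p = 5.8e-06). Ncl, nucleolin, stood at 1539, 1462 and 1488 CPM without NR and 1139, 1088 and 1094 CPM with it (-0.43 ± 0.05, edgeR adjusted p = 2.0e-05). Nolc1, a nucleolar scaffold, fell from 294 ± 9.19 to 222 ± 2.91 CPM (-0.40 ± 0.04) and Noc2l, a nucleolar factor that also binds p53, fell as well (-0.38 ± 0.04). In each the 3 NR libraries lay within a narrow range below the controls. Also lower, named afterwards, were the RNA polymerase I subunits Polr1a (-0.49) and Polr1b (-0.45) and the methyltransferase Fbl (-0.48). Of 81 ribosomal protein genes 50 were lower and 3 higher (median -0.17), and the largest fall was that of Rpl38 (-0.41, named afterwards). Rps13 fell from 246 ± 7.01 to 186 ± 6.31 CPM (-0.40 ± 0.05), and Rpl21 (-0.36 ± 0.05) and Rpl29 (-0.38 ± 0.05) fell as well. The 3 higher members, named afterwards, were Rps27l (0.37), Rps27 (0.26) and Rps19 (0.16). Without NR library 3, 30 ribosomal protein genes were lower, and with no filter on low genes 16. Their reads can be shared with pseudogenes.

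Translation factors and splicing factors moved the same way. Among 44 translation initiation and elongation factors 26 were lower and 1 higher (median -0.18). Eif2s2, the beta subunit of the factor that brings the initiator tRNA, stood at 141, 141 and 149.7 CPM in the control libraries and 95.1, 94.8 and 103 CPM in the NR libraries (-0.56 ± 0.06, edgeR adjusted p = 3.7e-06). Eif1ax fell from 249 ± 4.13 to 181 ± 8.66 CPM (-0.46 ± 0.05) and Eif3b from 655 ± 12.9 to 523 ± 12.9 CPM (-0.33 ± 0.04). The higher member, named afterwards, was Eif4a2 (0.27), a relative of the helicase Eif4a1 (-0.15), which fell. Of 53 splicing genes 34 were lower and 1 higher (median -0.20). Srsf6, an SR protein that guides splice site choice, stood at 611, 536 and 579.5 CPM in the control libraries and 401, 380.1 and 388 CPM in the NR libraries (-0.56 ± 0.06, edgeR adjusted p = 5.9e-06). Srsf1 fell from 641 ± 14.6 to 452 ± 19.7 CPM (-0.50 ± 0.05), Srsf7 from 769.6 ± 25.5 to 566 ± 13.4 CPM (-0.44 ± 0.04) and Eftud2, a GTPase of the U5 particle, from 399.9 ± 6.19 to 300.0 ± 6.68 CPM (-0.41 ± 0.05). Control and NR libraries were apart in all of these genes. With no filter 12 translation factors and 19 splicing genes were lower.

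Protein folding and protein breakdown genes changed less evenly. Of 33 ER chaperone and unfolded protein response genes 16 were lower and 17 did not pass (median -0.14). Sdf2l1, an ER co-chaperone, stood at 73.6, 73.5 and 73.5 CPM in the control libraries and 50.5, 52.0 and 46.0 CPM in the NR libraries (-0.57 ± 0.07, edgeR adjusted p = 2.1e-05). Hsp90b1 fell from 536 ± 14.0 to 383 ± 13.5 CPM (-0.49 ± 0.04), Calr, calreticulin, from 965 ± 22.8 to 738 ± 17.1 CPM (-0.39 ± 0.04) and the disulfide isomerase Pdia6 fell as well (-0.37 ± 0.04). Hspa5 (BiP), named afterwards, also fell (-0.44). Of 29 cytosolic heat shock genes 14 were lower and 2 higher (median -0.14), among them the mitochondrial co-chaperonin Hspe1 (-0.53 ± 0.06), the immunophilin Fkbp4 (-0.41 ± 0.05) and the chaperonin subunits Tcp1 (-0.38 ± 0.05) and Cct7 (-0.34 ± 0.05), all lower. Of 44 proteasome genes 13 were lower and 31 did not pass (median -0.08), with the assembly chaperone Psmg1 at -0.42 ± 0.07, the activator Psme3 at -0.33 ± 0.04 and the core subunits Psma7 and Psma6 at -0.29 ± 0.05 and -0.25 ± 0.06. With no filter 5 heat shock and 3 proteasome genes were lower and Psma6 did not pass (edgeR adjusted p = 0.0946), and without any 1 of control libraries 1 to 3 or NR libraries 1 and 2 at most 1 heat shock gene was higher.

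Mitochondrial energy genes were lower with NR. Of 78 nuclear genes of oxidative phosphorylation 53 were lower and 1, Cox7a2l (0.31, named afterwards), higher (median -0.23). Atp5a1, the alpha subunit of ATP synthase, stood at 1284, 1237 and 1269 CPM in the control libraries and 1009, 996 and 986 CPM in the NR libraries (-0.34 ± 0.04, edgeR adjusted p = 1.9e-05). Uqcrc1, a core subunit of complex III, stood at 463, 439.6 and 472 CPM without NR and 328, 353 and 364 CPM with it (-0.40 ± 0.05, edgeR adjusted p = 2.8e-05), and Atp5e fell from 151 ± 1.21 to 111 ± 5.68 CPM (-0.44 ± 0.05). The control and NR libraries were apart in each. Cycs, cytochrome c, named afterwards, also fell (-0.45). Of 7 tested mRNAs made by the mitochondrial genome 4 were lower (median -0.16), while both mitochondrial ribosomal RNAs rose. Counts in mitochondrial genes made up 0.694% ± 0.0206 of gene counts in control and 0.763% ± 0.0735 in NR libraries (exact permutation test, two-sided p = 0.2). Of 40 mitochondrial carriers and import genes 13 were lower and 5 higher, with the ADP/ATP carriers Slc25a5 (-0.44 ± 0.06) and Slc25a4 (-0.38 ± 0.06) and the import channel genes Tomm40 (-0.41 ± 0.06) and Timm50 (-0.31 ± 0.05) lower. With no filter 27 oxidative phosphorylation genes and 8 carrier or import genes were lower, and without control library 1, 3 of the latter were higher.

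In the tricarboxylic acid cycle and pyruvate list 19 of 31 genes were lower and 3 higher (median -0.22; 10 lower with no filter). Me2, mitochondrial malic enzyme, which uses NAD, stood at 197, 190.1 and 189 CPM in the control libraries and 137, 136 and 135 CPM in the NR libraries (-0.49 ± 0.05, edgeR adjusted p = 3.8e-06). Pdk1, a kinase that holds back pyruvate dehydrogenase, stood at 147, 142 and 153 CPM without NR and 103, 101 and 96.9 CPM with it (-0.56 ± 0.06, edgeR adjusted p = 1.6e-05). The groups were apart in both. Suclg2 fell from 104 ± 4.26 to 71.4 ± 2.98 CPM (-0.54 ± 0.06) and malate dehydrogenase Mdh2 from 464 ± 9.55 to 356 ± 3.02 CPM (-0.38 ± 0.05). Pyruvate carboxylase Pcx (-0.97) fell further and the related kinase Pdk2 (0.49) rose, both named afterwards. Glycolysis genes were split, with 6 of 26 higher and 8 lower (5 lower without control library 1 or 3). Aldoc, Pkm and the hexokinase Hk3 (1.19, named afterwards) rose, while Ldha, the lactate and pyruvate transporter Slc16a1 (-0.49 ± 0.05) and hexokinase Hk2 (-0.65, named afterwards) fell.

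Lipid genes fell into parts that moved differently. Of 37 genes of cholesterol and fatty acid synthesis 14 were higher and 6 lower (median 0.13). Insig1, which retains the sterol sensor in the ER, stood at 77.7, 72.4 and 78.4 CPM in the control libraries and 111, 109 and 117 CPM in the NR libraries (0.56 ± 0.06, edgeR adjusted p = 5.2e-06). Hmgcs1, a cholesterol synthesis enzyme, stood at 167, 156 and 172 CPM without NR and 227, 212 and 217 CPM with it (0.40 ± 0.05, edgeR adjusted p = 3.0e-05), and Acss2, which makes acetyl-CoA from acetate, rose by 0.58 ± 0.05. Each lay apart from its controls. Named afterwards, the cholesterol genes Fdft1 (0.59) and Msmo1 (0.49) also rose. The fatty acid desaturase Scd2 fell from 523 ± 11.6 to 387 ± 20.9 CPM (-0.43 ± 0.05), as did, named afterwards, acetyl-CoA carboxylase Acaca (-0.39) and fatty acid synthase Fasn (-0.24). The 6 lower members included these 3 enzymes of fatty acid synthesis and desaturation. With the looser filter 9 members of the list were higher.

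Of 31 genes of lipid efflux and sphingolipid handling 18 were higher and 13 did not pass (median 0.25; 8 higher with the looser filter). Lipa, the lysosomal acid lipase, stood at 35.5, 30.5 and 34.8 CPM in the control libraries and 85.9, 68.6 and 87.3 CPM in the NR libraries (1.26 ± 0.10, edgeR adjusted p = 3.8e-07). Sgpl1, which degrades sphingosine 1-phosphate, stood at 34.5, 33.5 and 38.9 CPM without NR and 72.0, 57.8 and 74.3 CPM with it (0.93 ± 0.09, edgeR adjusted p = 4.5e-06). Lpin1, a phosphatidate phosphatase, stood at 34.7, 28.8 and 31.5 CPM without NR and 59.3, 54.4 and 69.4 CPM with it (0.94 ± 0.09, edgeR adjusted p = 3.8e-06). In all 3 the groups were apart and NR library 2 was the lowest NR library. The acid ceramidase Asah1 rose by 0.49 ± 0.07. Fatty acid oxidation had 8 higher and 14 lower genes of 35, and its median of -0.01 changed sign with upper-quartile scaling. Lower were the coactivator Ppargc1b (-0.79 ± 0.14), the electron carrier subunit Etfb (-0.38 ± 0.07) and the dehydrogenase Hadh (-0.27 ± 0.05). With no filter Hadh did not pass (edgeR adjusted p = 0.0564). Without NR library 2, 4 of the fatty acid oxidation genes were higher, and without control library 1 or 3, 9 were lower.

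Few genes of NAD metabolism were tested, and the number called depended on the tool. Of 30 listed genes 14 passed the filter, 2 were higher, 1 lower and 11 did not pass the test (median 0.09). Over all genes tested 38.7% were called. Nmrk1, the kinase that turns NR into nicotinamide mononucleotide, stood at 9.93, 12.4 and 8.89 CPM in the control libraries and 16.8, 12.8 and 18.98 CPM in the NR libraries, a log2 change of 0.64 ± 0.16 (edgeR adjusted p = 0.0057). Its groups were apart by a small margin, since control library 2 and NR library 2 nearly met. Naprt, which starts NAD synthesis from nicotinic acid, stood at 16.7, 16.8 and 16.2 CPM without NR and 33.5, 25.2 and 26.9 CPM with it (0.78 ± 0.11, edgeR adjusted p = 7.0e-05), and Nnt, the mitochondrial enzyme that passes electrons between NADH and NADPH, stood at 83.3, 79.8 and 85.3 CPM without NR and 67.1, 63.1 and 61.9 CPM with it (-0.37 ± 0.06, edgeR adjusted p = 0.00037). Both groups of libraries were separate in each. The values of the rate-limiting salvage enzyme Nampt were 98.7, 88.9 and 91.6 CPM without NR and 88.0, 87.5 and 86.2 CPM with it (-0.09 ± 0.09, edgeR adjusted p = 0.42). Nmnat1, the nuclear enzyme of the last step, had a change of 0.27 ± 0.12 (edgeR adjusted p = 0.085) and Nmnat3 one of -0.09 ± 0.06 (edgeR adjusted p = 0.25). The nucleoside transporters Slc29a1 (0.17 ± 0.07) and Slc29a2 (-0.24 ± 0.15), the NAD kinases Nadk (-0.05 ± 0.05) and Nadk2 (0.33 ± 0.14), the mitochondrial NAD carrier Slc25a51 (0.01 ± 0.06), Nadsyn1 (-0.05 ± 0.15), Nudt12 (0.16 ± 0.14) and Haao (0.39 ± 0.18) did not pass either. Nmrk2 (0 to 0.589 CPM) and the NAD-consuming enzyme Cd38 (1.72 to 3.19 CPM) lay below the filter. DESeq2 called 4 genes of this list higher and 1 lower.

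Among 25 sirtuins, PARPs and related enzymes 9 were higher and 3 lower (median 0.18; 4 higher with the looser filter). Parp1, the main DNA damage sensor that consumes NAD, stood at 507, 474 and 504 CPM in the control libraries and 323, 319 and 364 CPM in the NR libraries (-0.56 ± 0.06, edgeR adjusted p = 4.4e-06). Macrod1, which removes ADP-ribose, stood at 48.2, 43.5 and 47.3 CPM without NR and 30.7, 30.5 and 28.2 CPM with it (-0.64 ± 0.08, edgeR adjusted p = 2.6e-05). The NR libraries lay below the controls in both genes. Tnks2, a tankyrase, rose from 36.6 ± 5.42 to 52.9 ± 2.30 CPM (0.53 ± 0.11) and Parp10 from 43.6 ± 2.24 to 58.8 ± 3.57 CPM (0.43 ± 0.08). Named afterwards, Sirt1 fell (-0.45), Sirt2 (0.19) and Sirt3 (0.18) rose slightly, and Parp14, Parp9 and Parp12, which are induced by interferon, rose by 0.60, 0.46 and 0.43.

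Lysosome genes were higher with NR. Of 44 tested members 32 were higher and 2 lower (median 0.33). Psap, the precursor of the saposins that help break down sphingolipids, stood at 360.3, 352 and 355 CPM in the control libraries and 546, 512 and 555 CPM in the NR libraries (0.60 ± 0.04, edgeR adjusted p = 1.6e-07). Grn, progranulin, stood at 232, 219 and 216 CPM without NR and 342, 321 and 341 CPM with it (0.59 ± 0.05, edgeR adjusted p = 4.3e-07). The 3 NR libraries lay well above the controls in both. The list spans enzymes, membrane proteins, proton pump subunits and regulators. Named afterwards, the proteases Ctsd (0.60) and Ctsb (0.46), the membrane proteins Cln3 (0.82) and Lamp2 (0.44), the proton pump subunits Atp6v0d1 (0.39) and Atp6v1a (0.33), the calcium channel Mcoln1 (0.37) and the transcription factors Tfeb (0.57) and Tfe3 (0.49) were higher. The 2 lower members, named afterwards, were the glycosidases Naglu (-0.50) and Glb1 (-0.29).

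Many lysosomal genes are known to carry a palindromic E-box in the promoter, to which TFEB and TFE3 bind. Promoters of 250 bases before to 50 bases after the start site (RefSeq, GRCm38.p6) were searched for the 8 letters TCACGTGA, which contain the shorter CACGTG and read the same on both strands. 35 of the 44 lysosome genes had a promoter available, and 7 of them (20%) held the motif in any of their promoters. Of all genes tested, 8254 had a promoter, and 2.42% of these held the motif. Counted by promoter and not by gene, 0.974% of all 32851 promoters held it. Over all genes the share was 2.49% among those called higher and 2.25% among those called lower. 6 of the 7 holders were called higher: Ctsd, Cln3, Atp6v0d1, Mcoln1, Ctsa and Atp6v1a. In the whole list 32 of 44 were higher. Of the 200 holders among all genes tested 39 were called higher, near the 18.6% of all genes. Gla (0.13, edgeR adjusted p = 0.56) did not pass. Gla and Ctsa each held 2 matches, and the position given below for Gla is that of the first. The windows of 40 bases around the motif are shown for 6 of them on the strand of the gene, with the motif in capitals, to show how the letters beside it differ. They lie at chr7:142387903-142387942 on the minus strand for Ctsd, chr7:126583335-126583374 (minus) for Cln3, chr8:105566045-105566084 (minus) for Atp6v0d1, chr8:3500457-3500496 (plus) for Mcoln1, chr16:44139368-44139407 (minus) for Atp6v1a and chrX:134601210-134601249 (minus) for Gla, and the motif begins 99, 122, 4, 46, 132 and 228 bases before the start site.
Ctsd: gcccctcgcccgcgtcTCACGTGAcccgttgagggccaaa
Cln3: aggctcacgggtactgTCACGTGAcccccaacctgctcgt
Atp6v0d1: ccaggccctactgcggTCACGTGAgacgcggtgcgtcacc
Mcoln1: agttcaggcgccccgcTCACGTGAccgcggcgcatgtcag
Atp6v1a: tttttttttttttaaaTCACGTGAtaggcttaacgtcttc
Gla: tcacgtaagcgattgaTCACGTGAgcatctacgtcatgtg
The bases just outside the motif differ among these windows, though cc follows it in Ctsd, Cln3 and Mcoln1. A match is a run of letters and was not tested for binding.

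Autophagy genes were higher too. Of 43 tested members 24 were higher and 19 did not pass (median 0.29). Gabarapl1, which is joined to autophagosome membranes, stood at 132, 142 and 133 CPM in the control libraries and 254, 233 and 217 CPM in the NR libraries (0.79 ± 0.06, edgeR adjusted p = 4.4e-07). Atg9a, which supplies membrane to autophagosomes, stood at 46.3, 43.3 and 43.2 CPM without NR and 65.2, 67.3 and 69.1 CPM with it (0.60 ± 0.07, edgeR adjusted p = 2.5e-05). In both genes all NR libraries exceeded the controls. Atg16l2 rose from 35.6 ± 0.684 to 54.3 ± 3.70 CPM (0.61 ± 0.07) and Gabarap from 128 ± 2.43 to 173 ± 9.49 CPM (0.43 ± 0.06). Named afterwards, the initiating kinase Ulk1 rose by 0.91, the phosphoinositide-binding Wipi1 by 0.81, and the mitophagy genes Pink1 and Bnip3 by 0.56 and 0.52. Among 49 genes of the mTORC1 pathway and its brakes 15 were higher and 4 lower (6 higher with the looser filter). Rps6ka1, an ERK-activated kinase, rose from 296 ± 4.93 to 381 ± 11.9 CPM (0.36 ± 0.04), the lysosomal arginine sensor Slc38a9 from 27.2 ± 1.05 to 39.4 ± 4.39 CPM (0.53 ± 0.10), and Nprl2, a subunit of the GATOR1 brake, from 36.9 ± 2.92 to 47.6 ± 1.45 CPM (0.37 ± 0.07).

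Synthesis of polyamines, nucleotides and methyl donors was lower in 24 of 47 tested genes and higher in 5 (median -0.19; 15 lower and 1 higher with no filter). Srm, spermidine synthase, stood at 295, 288 and 285 CPM in the control libraries and 178, 177 and 179 CPM in the NR libraries (-0.70 ± 0.05, edgeR adjusted p = 3.8e-07). Shmt1, a serine and folate enzyme, stood at 173, 172 and 171 CPM without NR and 119.6, 104 and 115 CPM with it (-0.61 ± 0.06, edgeR adjusted p = 2.1e-06). Sat1, which acetylates polyamines for export and breakdown, stood at 47.9, 47.5 and 40.4 CPM without NR and 95.3, 78.6 and 84.6 CPM with it (0.93 ± 0.09, edgeR adjusted p = 2.0e-06). The synthesis gene and the breakdown gene thus moved in opposite directions, with no overlap between groups in either. Mthfd1l fell from 162 ± 13.1 to 104 ± 3.33 CPM (-0.64 ± 0.06). Named afterwards, Cad, which starts pyrimidine synthesis, fell (-0.60), as did ornithine decarboxylase Odc1 (-0.36). In iron and heme handling 10 of 28 genes were lower and 4 higher (6 lower without control library 2 or NR library 2). Steap3, a ferrireductase, stood at 23.1, 21.9 and 26.8 CPM without NR and 13.2, 12.7 and 12.2 CPM with it (-0.91 ± 0.14, edgeR adjusted p = 0.00017). Ncoa4, the receptor that delivers ferritin to the lysosome, stood at 128, 115 and 122 CPM without NR and 206, 185 and 185 CPM with it (0.65 ± 0.06, edgeR adjusted p = 1.4e-06). Glrx5, of iron-sulfur cluster synthesis, fell from 112 ± 2.86 to 83.9 ± 1.06 CPM (-0.41 ± 0.05).

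Most of the cell cycle genes that passed the test were lower, and the cell cycle inhibitors that passed were higher. Of 67 genes of the G1/S transition and DNA replication 25 were lower and 3 higher (median -0.10; 12 lower with no filter). Cdk4, a G1 kinase, stood at 687, 659 and 653 CPM in the control libraries and 534, 507 and 504 CPM in the NR libraries (-0.37 ± 0.05, edgeR adjusted p = 3.5e-05). Mcm7, of the replicative helicase, stood at 636, 609 and 609 CPM without NR and 499.8, 480.4 and 459.7 CPM with it (-0.37 ± 0.04, edgeR adjusted p = 1.7e-05), and E2f8 fell from 158 ± 3.24 to 109.7 ± 11.2 CPM (-0.53 ± 0.07). Rbl2, the p130 pocket protein of quiescent cells, stood at 136, 133 and 134 CPM without NR and 243, 215 and 202 CPM with it (0.71 ± 0.08, edgeR adjusted p = 9.9e-06). The groups were apart in each. The count of 3 higher genes moved to 7 with upper-quartile scaling and to 5 without NR library 2.

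Of 59 G2 and mitosis genes 25 were lower and 34 did not pass (median -0.21). Kif15, a spindle motor, stood at 146, 144 and 134 CPM in the control libraries and 81.1, 107 and 91.9 CPM in the NR libraries (-0.60 ± 0.09, edgeR adjusted p = 0.00013). Bub1b, of the spindle checkpoint, stood at 346, 326 and 325 CPM without NR and 210.3, 301 and 241 CPM with it (-0.41 ± 0.09, edgeR adjusted p = 0.0028). Espl1, separase, stood at 227, 199 and 223 CPM without NR and 138, 175 and 156 CPM with it (-0.47 ± 0.09, edgeR adjusted p = 0.0014). NR library 2 was the highest NR library in all 3 genes, and Spc24 (-0.46 ± 0.09) showed the same order. The count rested on single libraries. Without NR library 2 it was 52 lower, without control library 1 or 3 it was 14 or 13, and without NR library 1 or 3 it was 12 each. In bulk samples fewer dividing cells and less RNA per cell cannot be told apart.

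Of 22 cell cycle inhibitors and quiescence genes 12 were higher and 10 did not pass (median 0.43). Tob1, which slows the cell cycle and shortens mRNA tails, stood at 19.3, 15.4 and 16.8 CPM in the control libraries and 55.6, 46.4 and 55.1 CPM in the NR libraries (1.61 ± 0.11, edgeR adjusted p = 1.0e-07). Btg1, of the same family, stood at 23.5, 27.1 and 22.5 CPM without NR and 43.2, 38.5 and 40.2 CPM with it (0.74 ± 0.10, edgeR adjusted p = 6.1e-05). Both were separate between the groups. Ccng2 rose from 50.1 ± 5.36 to 76.9 ± 7.66 CPM (0.62 ± 0.09) and Rb1cc1, a partner of Ulk1 in autophagy, from 97.2 ± 4.15 to 132 ± 8.35 CPM (0.44 ± 0.07). Fgd5, a marker of HSCs, and Foxo3, named afterwards, rose by 1.02 and 0.42. Of 57 DNA damage and repair genes 24 were lower and 3 higher (median -0.17). Prkdc, the kinase of end joining, stood at 85.3, 92.1 and 92.6 CPM without NR and 49.8, 52.0 and 56.3 CPM with it (-0.77 ± 0.12, edgeR adjusted p = 0.00023). Brca2 fell from 114 ± 9.64 to 75.2 ± 5.47 CPM (-0.60 ± 0.10) and Xrcc5 from 92.9 ± 1.36 to 64.6 ± 9.36 CPM (-0.52 ± 0.09), while the excision repair nuclease Ercc5 rose from 21.6 ± 3.38 to 39.4 ± 2.51 CPM (0.87 ± 0.12). Without control library 1, 1 repair gene was higher.

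Survival genes moved in both directions. Of 26 genes of the BCL2 family, death receptors and caspases 9 were higher and 4 lower. Bcl2, the main anti-apoptotic member in many blood cells, stood at 275, 273 and 262 CPM in the control libraries and 119.8, 155 and 157 CPM in the NR libraries (-0.91 ± 0.09, edgeR adjusted p = 4.4e-06). Bid, which links death receptors to mitochondria, stood at 121, 115 and 117 CPM without NR and 175, 168 and 159 CPM with it (0.51 ± 0.06, edgeR adjusted p = 1.4e-05). Tnfrsf1a, a TNF receptor, stood at 78.0, 83.3 and 76.8 CPM without NR and 128, 129 and 123 CPM with it (0.68 ± 0.07, edgeR adjusted p = 3.2e-06). All 3 were separate between the groups, with Bcl2 lower and the other 2 higher. Ripk1, a kinase under that receptor, rose from 122 ± 4.14 to 161 ± 3.81 CPM (0.41 ± 0.04). The lower count was 2 without any 1 of the control libraries or of NR libraries 2 and 3, and 5 were higher with the looser filter.

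HSC surface genes and receptors were more often higher than lower. Of 50 tested members 19 were higher and 8 lower (median 0.19), Procr and Csf2rb2 among the first and Vwf among the second. Procr and Csf2rb2 reached the filter only through the NR libraries, so they could enter this count only as rises. Gpr171, a G protein-coupled receptor, stood at 75.6, 76.0 and 78.5 CPM in the control libraries and 132, 117 and 126 CPM in the NR libraries (0.70 ± 0.06, edgeR adjusted p = 4.9e-07). Ifnar2, a chain of the type I interferon receptor, stood at 58.3, 57.3 and 55.4 CPM without NR and 93.4, 90.5 and 91.4 CPM with it (0.69 ± 0.07, edgeR adjusted p = 4.0e-06). Tgfbr3, the TGF-beta co-receptor betaglycan, stood at 147, 144 and 158 CPM without NR and 48.5, 63.2 and 67.1 CPM with it (-1.33 ± 0.10, edgeR adjusted p = 4.0e-07). The groups lay apart in all 3, and Tgfbr3 fell. Named afterwards, both chains of the interferon gamma receptor, Ifngr1 (0.46) and Ifngr2 (0.58), and Flt3 (0.57), whose ligand was in the medium, rose. The groups of Flt3 overlapped, at 24.9 to 35.3 CPM in control and 33.0 to 52.8 CPM in NR libraries without scaling. In the shorter list of sorted HSC markers 7 of 18 were higher, Procr again among them, and 5 lower. Pdzk1ip1 stood at 111, 119.6 and 107 CPM without NR and 184, 191 and 184 CPM with it (0.72 ± 0.07, edgeR adjusted p = 2.5e-06), and Ctnnal1, the alpha-catulin gene, fell from 78.3 ± 2.01 to 59.3 ± 1.80 CPM (-0.40 ± 0.06). The summed level of that list was 4960 to 5123 CPM in control and 5378 to 5549 CPM in NR libraries, without scaling.

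Of 47 HSC transcription factors 15 were higher and 10 lower. Nkx2-3, a homeobox factor of HSCs, stood at 10.5, 9.80 and 9.55 CPM in the control libraries and 22.8, 18.3 and 17.5 CPM in the NR libraries (0.97 ± 0.11, edgeR adjusted p = 1.2e-05). Hlf, a factor that marks HSCs, stood at 136, 124 and 135 CPM without NR and 222, 171 and 207 CPM with it (0.60 ± 0.08, edgeR adjusted p = 8.1e-05). Spi1 (PU.1), which drives myeloid fate, stood at 91.7, 88.2 and 89.6 CPM without NR and 117, 123 and 121 CPM with it (0.42 ± 0.06, edgeR adjusted p = 7.4e-05). These 3 rose, each with its groups apart. Gata2, which HSCs need for self-renewal, fell from 791 ± 32.2 to 651 ± 33.1 CPM (-0.28 ± 0.05; edgeR adjusted p = 0.0519 with no filter). Named afterwards, Gata3 (0.64) and Id2 (0.70) rose and Mycn (-0.47) fell. The lower count was 6 without any 1 of the control libraries or NR library 1, and also with upper-quartile scaling. With the looser filter 9 were higher.

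**Figure D3:**
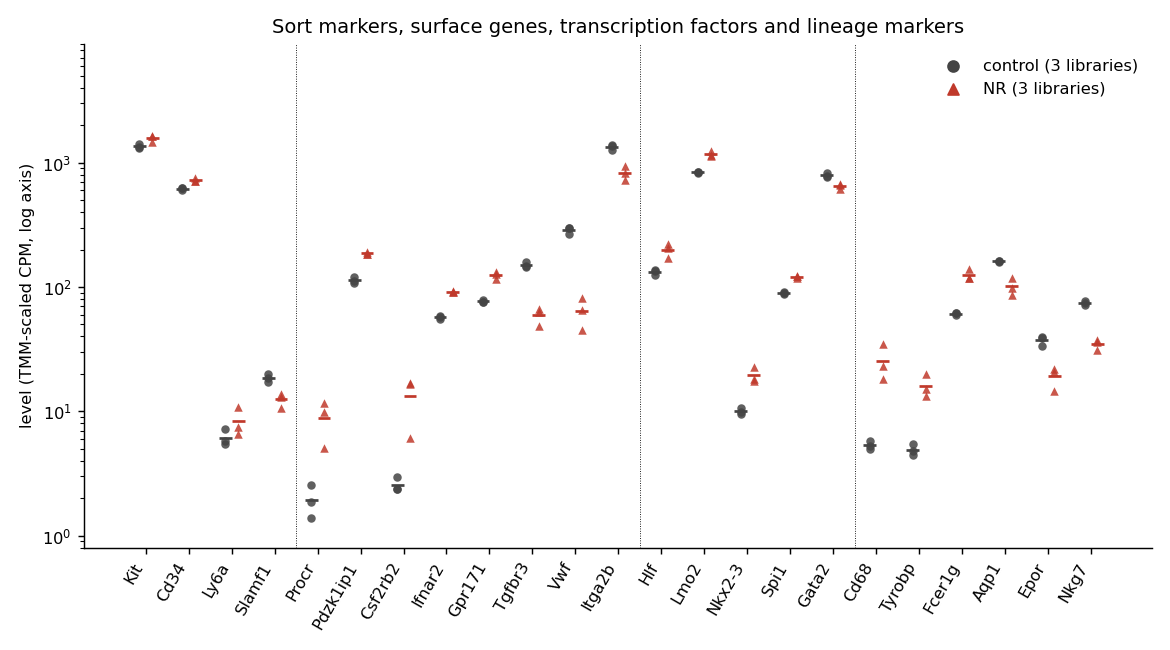
Level (y axis, TMM-scaled CPM, log axis) in each of the 3 control (circles) and 3 NR (triangles) ST-HSC libraries for sort markers, surface genes, HSC transcription factors and lineage marker genes, with group means as bars. Procr and Csf2rb2 rose from low levels, Vwf and Tgfbr3 fell, and Ly6a is the gene here whose groups overlap.

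Markers of other blood lineages were also measured, and in 5 of 7 lists the summed level of all members, without scaling, did not overlap between control and NR libraries. It was higher with NR for monocyte, mast cell (2973 to 3032 and 3163 to 3396 CPM) and endothelial and stromal markers (452 to 462 and 502 to 532 CPM). It was lower for megakaryocyte and lymphoid markers (134 to 140 and 85.5 to 99.04 CPM). The groups overlapped for erythroid (1990 to 2017 and 1875 to 2123 CPM) and neutrophil markers (1323 to 1421 and 1203 to 1324 CPM). Several sums rest largely on a few abundant genes and do not measure a lineage alone. In the mast cell list Kit, also a sort marker, held 1272 to 1372 CPM in control and 1467 to 1625 CPM in NR libraries. Cpa3 of that list held 9.38 to 10.8 and 7.07 to 8.72 CPM. Car2 (1757 to 1775 and 1723 to 1960 CPM) led the erythroid sum. Calr (925 to 964 and 725 to 757 CPM) led the neutrophil sum and Nkg7 (70.1 to 75.45 and 31 to 36.92 CPM) the lymphoid sum. Tie1 (244 to 257 and 294 to 301 CPM) led the endothelial and stromal sum. Of 21 tested megakaryocyte and platelet markers 10 were lower and 2 higher (median -0.18), and their summed level was 6394 to 6956 CPM in control and 5370, 6141 and 5490 CPM in NR libraries. Serpine2, a protease inhibitor, stood at 155, 167 and 151 CPM in the control libraries and 79.3, 80.4 and 75.7 CPM in the NR libraries (-1.01 ± 0.09, edgeR adjusted p = 9.7e-07). Vwf, Mrvi1 and Itga2b, described above, belong to the same list, as does the platelet chemokine Pf4 (-0.55, named afterwards). Of 7 erythroid markers 3 were lower, namely Epor (-0.97 ± 0.14), Aqp1 (-0.66 ± 0.09) and Sptb (-1.08 ± 0.36), and Hba-a1 stood at 0 to 0.125 CPM. The fall of Sptb did not pass without control library 2 or 3 or NR library 1 or 2 (edgeR adjusted p from 0.064 to 0.093). Sptb stood at 3.72 to 4.79 CPM in NR libraries without scaling, so it reached the filter only through the control libraries. Of 28 monocyte, macrophage and dendritic markers 16 stood under 1 CPM, 6 passed the filter and 5 of these were higher. Tyrobp among the 5 passed the filter only through the NR libraries. Tyrobp, a signalling adaptor, stood at 5.46, 4.76 and 4.46 CPM without NR and 19.8, 13.2 and 15.2 CPM with it (1.72 ± 0.23, edgeR adjusted p = 4.8e-05). Fcer1g, another adaptor, stood at 61.3, 61.7 and 59.6 CPM without NR and 139, 117 and 119 CPM with it (1.04 ± 0.08, edgeR adjusted p = 4.9e-07), and Lyz2, lysozyme, rose from 263 ± 5.76 to 364 ± 25.3 CPM (0.47 ± 0.06). As with Cd68 and Ccl9, NR library 1 was the highest for these 3 genes.

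The summed level of the monocyte list was 492 to 502 CPM in control and 772, 688 and 721 CPM in NR libraries, which do not overlap. The macrophage and dendritic cell markers under the filter did not all move one way. Itgax stood at 0.515 to 1.70 CPM in control and 0.408 to 0.737 CPM in NR libraries, and H2-Aa at 1.06 to 3.09 and 0.762 to 1.82 CPM. Adgre1 stood at 0.275 to 0.793 CPM in control and 0.094 to 1.16 CPM in NR libraries, and C1qa at 0 to 0.235 and 0 to 0.958 CPM. Csf1r stood at 0.807, 1.65 and 2.88 CPM in control and 3.05, 2.48 and 5.20 CPM in NR libraries and Itgam at 0.714, 0.721 and 1.03 CPM and 2.37, 0.815 and 1.77 CPM. Cd14 stood at 0.714, 0.618 and 0.176 CPM in control and 2.20, 0.846 and 1.80 CPM in NR libraries. The NR libraries lay above the controls in Cd14, and the groups overlapped in the other genes given here. The part of such cells in the rises of Cd68, Ccl9, Tyrobp and Fcer1g was not tested. Of 7 neutrophil markers 2 were higher and 3 lower, with Prtn3 at 0.36 ± 0.08 and Ms4a3 at -0.64 ± 0.23, and Ms4a3 did not pass under 8 of the alternative settings. The lower count was 1 without control library 1 or 3 or NR library 1 or 3. Of 4 lymphoid markers 1, the cytotoxic granule gene Nkg7, was lower, at 74.7, 77.4 and 72.0 CPM without NR and 35.9, 31.0 and 37.1 CPM with it (-1.11 ± 0.11, edgeR adjusted p = 3.8e-06). Of 5 mast cell markers Srgn (0.32 ± 0.05) and Kit were higher and Gata2 lower. Of 6 endothelial and stromal markers 3 were higher, Tie1 (0.22 ± 0.04) and Runx2 (0.39 ± 0.09) among them, and 2 lower, Col1a2 (-0.76 ± 0.18) and Pdgfrb (-0.60 ± 0.18). The rise of Tie1 did not pass with the looser filter (edgeR adjusted p = 0.165) or with no filter (0.173), nor did the fall of Pdgfrb without control library 3 (0.107) or NR library 1 (0.0789), and the rise of Prtn3 did not pass with the looser filter (0.0728).

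Interferon and inflammatory genes were higher with NR. Of 45 interferon response genes 29 were higher and 1 lower (median 0.40; 18 higher with the looser filter). Irf1, a transcription factor of the response, stood at 35.7, 36.4 and 36.4 CPM in the control libraries and 60.2, 57.8 and 61.5 CPM in the NR libraries (0.73 ± 0.08, edgeR adjusted p = 8.0e-06). Gbp2, an interferon-induced GTPase, stood at 21.8, 21.1 and 22.2 CPM without NR and 45.6, 38.4 and 36.9 CPM with it (0.89 ± 0.11, edgeR adjusted p = 2.7e-05). Tgtp2, of another GTPase family, rose from 22.6 ± 0.309 to 41.2 ± 3.99 CPM (0.87 ± 0.09). All NR libraries lay above the controls in these genes, while Ifi47, the lower member, stood at 245, 255 and 249 CPM without NR and 165, 158 and 167 CPM with it (-0.61 ± 0.05, edgeR adjusted p = 5.8e-07). Tgtp2 and Ifi47 have close relatives in the genome with which reads may be shared. Named afterwards, the factors Stat2 (0.73) and Irf9 (0.51) and the RNA sensor Ddx58 (0.76) rose. Of 23 genes of antigen presentation 8 were higher and 2 lower, with the peptide loader Tapbp (0.64 ± 0.05), H2-T23 (0.44 ± 0.06) and H2-T22 (0.49 ± 0.07) higher and H2-Q7 (-0.57 ± 0.08) lower, and the H2 genes are near copies of each other. With no filter 5 of this list were higher.

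Of 23 NF-kB factors and inflammatory genes 15 were higher and 1 lower (median 0.41). Traf1 among the 15 reached the filter only through the NR libraries. Traf1, an adaptor induced by NF-kB, stood at 4.25, 4.48 and 5.15 CPM in the control libraries and 15.3, 12.5 and 16.9 CPM in the NR libraries (1.68 ± 0.16, edgeR adjusted p = 2.0e-06). Nfkb2, the precursor of the non-canonical subunit, stood at 29.4, 27.7 and 25.9 CPM without NR and 43.3, 42.5 and 43.6 CPM with it (0.64 ± 0.09, edgeR adjusted p = 5.1e-05). Il12a, a chain of interleukin 12, rose from 91.7 ± 3.94 to 156 ± 20.6 CPM (0.76 ± 0.08). Named afterwards, Relb rose by 1.17 and Nfkbiz by 1.34. Of 16 immediate early genes 9 were higher and 1 lower. Klf10, a TGF-beta inducible factor, stood at 138, 129 and 133 CPM without NR and 268, 272 and 277 CPM with it (1.03 ± 0.05, edgeR adjusted p = 8.1e-09), with very small spread in either group. Btg2, which is also a p53 target, rose by 1.44 ± 0.14, Ier5 by 0.86 ± 0.11 and Csrnp1 by 0.80 ± 0.13. Of 25 chemokines, cytokines and growth factors 5 were higher and 6 lower, near the shares over all genes tested (18.6% and 20%). Mif, macrophage migration inhibitory factor, stood at 285, 290.0 and 284 CPM without NR and 193, 177 and 162 CPM with it (-0.69 ± 0.06, edgeR adjusted p = 9.3e-07) and Vegfa, the vascular growth factor, at 50.4, 42.0 and 49.4 CPM without NR and 13.8, 19.02 and 23.6 CPM with it (-1.33 ± 0.15, edgeR adjusted p = 1.0e-05). Both fell in all 3 NR libraries.

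Signalling lists near receptors were mixed. Of 23 ERK feedback and ETV genes 8 were higher and 3 lower (median 0.29). Dusp5, a nuclear ERK phosphatase, stood at 9.86, 9.13 and 6.84 CPM in the control libraries and 19.6, 18.99 and 23.3 CPM in the NR libraries (1.26 ± 0.17, edgeR adjusted p = 5.5e-05). Sh2b3 (LNK), an adaptor that restrains cytokine receptors in HSCs, stood at 64.3, 63.2 and 62.7 CPM without NR and 101, 111 and 105 CPM with it (0.74 ± 0.07, edgeR adjusted p = 2.3e-06), and Fosl1 rose from 15.3 ± 1.13 to 26.3 ± 2.29 CPM (0.78 ± 0.11). Etv4, which reached the filter only through the control libraries, was lower, so the list held members of both directions. Of 32 genes of TGF-beta, BMP, Notch and Wnt signalling 3 were higher and 6 lower, a smaller share than the 38.7% called over all genes tested. Ltbp3 stood at 62.3, 68.7 and 60.5 CPM without NR and 119, 118 and 125 CPM with it (0.92 ± 0.07, edgeR adjusted p = 2.3e-07), opposite to Ltbp1. Gdf3, a TGF-beta family ligand, fell from 27.4 ± 1.34 to 13.3 ± 2.20 CPM (-1.05 ± 0.13) and the Wnt receptor Fzd3 from 12.03 ± 2.09 to 4.87 ± 1.40 CPM (-1.30 ± 0.22). Of 23 hypoxia genes 7 were higher and 3 lower. Ddit4, an mTORC1 inhibitor that is also in a stress list, rose by 1.28 ± 0.14 and Vhl by 0.39 ± 0.07, while Vegfa and Pdk1 fell.

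Adhesion genes were split, and cytoskeleton genes were called about as often as all genes tested. Of 43 integrin and adhesion genes 13 were higher and 10 lower. Alcam, an adhesion molecule of HSCs and niche cells, stood at 17.4, 20.2 and 18.1 CPM in the control libraries and 48.9, 37.2 and 45.2 CPM in the NR libraries (1.24 ± 0.12, edgeR adjusted p = 2.5e-06). Itgb2, the integrin chain shared by leukocyte integrins, stood at 43.3, 41.7 and 41.0 CPM without NR and 96.4, 72.7 and 104 CPM with it (1.11 ± 0.11, edgeR adjusted p = 3.6e-06). Col4a2, a basement membrane collagen, stood at 112, 115 and 119 CPM without NR and 248, 215 and 235 CPM with it (1.01 ± 0.07, edgeR adjusted p = 1.6e-07). All 3 rose with no overlap. The partner chain Itgal, named afterwards, fell (-1.29). Of 67 actin and small GTPase genes 10 were higher and 14 lower, near the shares over all genes tested (18.6% and 20%). Gsn, gelsolin, which severs actin filaments, stood at 95.6, 94.6 and 88.2 CPM without NR and 248, 200.2 and 242 CPM with it (1.31 ± 0.08, edgeR adjusted p = 3.4e-08). Capg, a capping protein of the same family, rose by 0.49 ± 0.06 and Cdc42ep3 by 0.44 ± 0.07, while Ezr, ezrin, fell from 242 ± 7.98 to 186 ± 8.68 CPM (-0.37 ± 0.05). Without control library 1 or 3 the lower count was 9, and with the looser filter 6 were higher.

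Chromatin regulators, clock genes and imprinted genes were called, in either direction, in shares near the 38.7% of all genes tested. Of 66 DNA methylation, Polycomb and chromatin genes 9 were higher and 14 lower, and the median of -0.02 changed sign with upper-quartile scaling. Dnmt3b, a DNA methyltransferase, stood at 185, 160.4 and 165 CPM in the control libraries and 126, 128 and 130.1 CPM in the NR libraries (-0.41 ± 0.06, edgeR adjusted p = 0.00011). Phf1, a Polycomb partner, stood at 8.01, 9.62 and 9.64 CPM without NR and 20.3, 18.4 and 24.2 CPM with it (1.20 ± 0.15, edgeR adjusted p = 2.5e-05). The remodeller Smarca4 fell from 384 ± 20.6 to 304 ± 8.65 CPM (-0.34 ± 0.05) and the acetyltransferase Kat2a from 228 ± 11.9 to 179 ± 3.07 CPM (-0.35 ± 0.05). Named afterwards, the Polycomb enzymes moved in opposite directions, with Ezh2 at -0.24 and Ezh1 at 0.50. Of 18 clock genes 7 were higher and 11 did not pass, among them the kinases Csnk1e (0.57 ± 0.08) and Csnk1d (0.24 ± 0.05) and the factor Tef (0.33 ± 0.10), but 3 without control library 2 and 4 without NR library 2. Tef did not pass with NR library 2 or 3 or control library 2 left out or with the looser filter (edgeR adjusted p from 0.057 to 0.164), nor Csnk1d with the looser filter (0.0845) or with no filter (0.123). Of 10 imprinted growth genes Phlda2 (0.83 ± 0.09) and Impact (0.23 ± 0.06) were higher and Grb10 and Kcnq1ot1 (-0.48 ± 0.17) lower. The call of Kcnq1ot1 was lost with DESeq2 (adjusted p = 0.0568) and in 5 of 6 edgeR fits with a library left out, all but that without NR library 3 (adjusted p from 0.0695 to 0.13). That of Impact was lost with the looser filter (edgeR adjusted p = 0.121) and with no filter (0.0994). Kcnq1ot1 is antisense to Kcnq1, and reads of both cannot be told apart without strand.

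**Figure D4:**
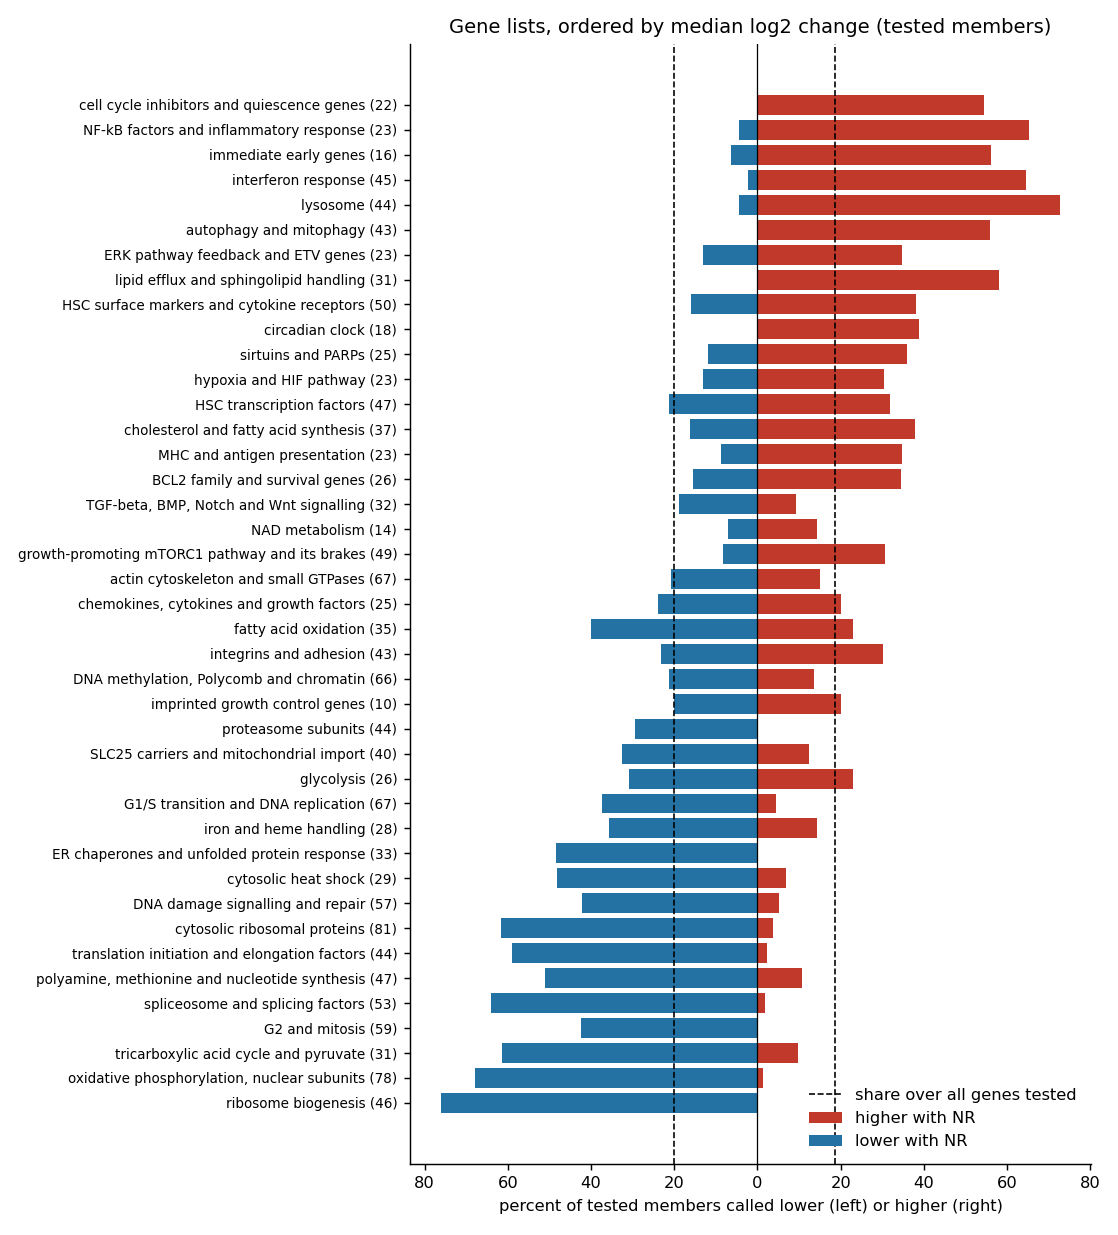
Percent of tested members called higher (red, right) or lower (blue, left) with NR in ST-HSCs for each gene list, with the number tested in brackets and lists ordered by median log2 change. The dashed lines mark the shares over all genes tested (18.6% higher and 20% lower). Lists of inhibitors, inflammation, lysosome and autophagy stand at the top and ribosome biogenesis and oxidative phosphorylation at the bottom.

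The effect of NR in ST-HSCs was then set beside that in LT-HSCs, which have their own controls. In LT-HSCs, with the same 10373 genes tested, NR raised 1219 (11.8%) and lowered 1636 (15.8%). 2203 genes were called in the same direction in both cell types and 5 in opposite directions. All genes called in both made up 55.0% of the calls in ST-HSCs and 77.3% of those in LT-HSCs. The difference of the 2 effects, tested as an interaction in the same edgeR fit, passed in 37 genes (0.357%). Of these 23 were higher with NR in ST-HSCs, all 23 with a larger change than in LT-HSCs, and 11 were lower, 10 of them with a larger fall. The other 3 were not called in ST-HSCs. This count rested on single libraries and on the tool. It was 4, 11 or 5 without control library 1, 2 or 3, 20 without NR library 1 and 261 without NR library 2, and DESeq2 called 228.

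Gsn rose by 1.31 ± 0.08 in ST-HSCs and by 0.49 ± 0.08 in LT-HSCs, a difference of 0.82 ± 0.11 (edgeR adjusted p = 0.0054). Tinagl1 rose by 1.98 ± 0.15 against 0.67 ± 0.14, a difference of 1.31 ± 0.20 (edgeR adjusted p = 0.019). Laptm5 rose by 0.92 ± 0.05 against 0.45 ± 0.05 (difference 0.47 ± 0.07, edgeR adjusted p = 0.021). These genes rose in both cell types and more in ST-HSCs. Grb10 had changes of -1.66 ± 0.10 in ST-HSCs and -0.74 ± 0.10 in LT-HSCs (difference -0.92 ± 0.14, edgeR adjusted p = 0.018). Cntrl, a centrosome protein, had -0.43 ± 0.05 in ST-HSCs and 0.07 ± 0.05 in LT-HSCs, where it did not pass (difference -0.50 ± 0.07, edgeR adjusted p = 0.007). Vwf had -2.16 ± 0.15 and -1.01 ± 0.14 (difference -1.15 ± 0.21, edgeR adjusted p = 0.031). The falls were larger in ST-HSCs in these 3 genes. Irf1 rose in ST-HSCs and had a change of 0.14 ± 0.08 in LT-HSCs (edgeR adjusted p = 0.2), with a difference of 0.59 ± 0.11 (edgeR adjusted p = 0.042).

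The list of G2 and mitosis genes had medians of opposite sign in the cell types. Its median log2 change was -0.21 in ST-HSCs and 0.15 in LT-HSCs, where 7 of the 59 were higher. Kif15 had -0.60 ± 0.09 in ST-HSCs and -0.02 ± 0.09 in LT-HSCs (difference -0.58 ± 0.13, edgeR adjusted p = 0.076). The difference of effects passed in 0 of the 59 genes in edgeR, in 2 with limma-voom and in 15 with DESeq2, and 43 had an unadjusted edgeR p under 0.05, all with the lower value in ST-HSCs. By contrast, ribosome biogenesis genes had medians of -0.32 in ST-HSCs and -0.34 in LT-HSCs, and 35 members were lower in each. Proteasome genes were lower in 13 of 44 members in ST-HSCs and in 30 in LT-HSCs, with medians of -0.08 and -0.20. The difference passed in 0 of these 44 genes with edgeR, DESeq2 and limma-voom, and 6 had an unadjusted p under 0.05 with edgeR.

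**Figure D5:**
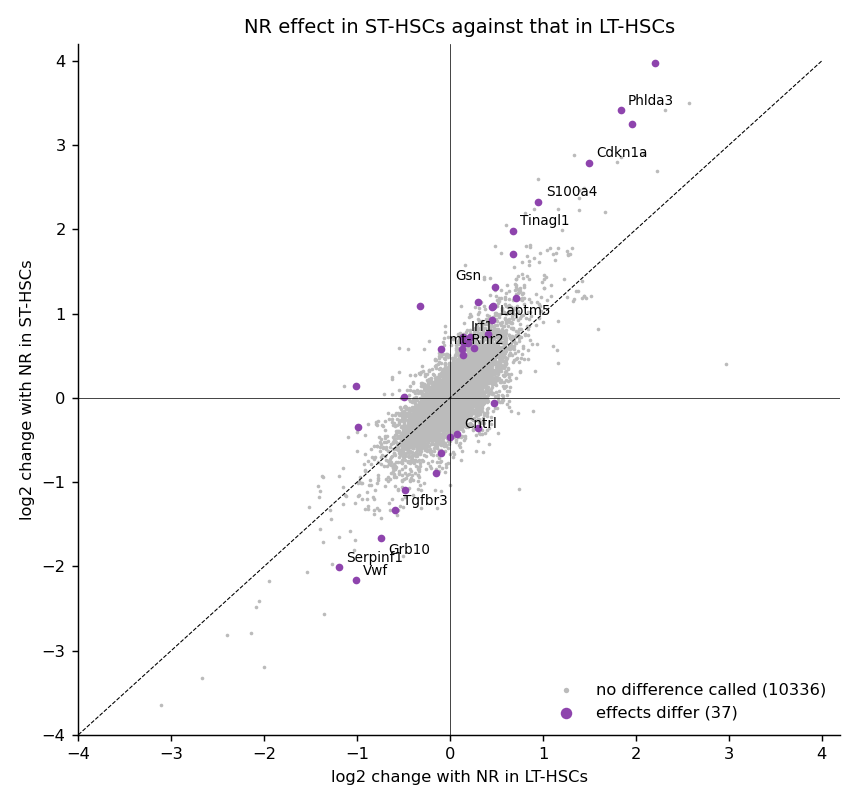
Log2 change with NR in ST-HSCs (y axis) against that in LT-HSCs (x axis) for the 10373 genes tested, with the line of equal change dashed. The 37 genes whose effects differ are purple, and most of them lie farther from 0 in ST-HSCs than in LT-HSCs.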

How the data were processed

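RNA was sequenced in bulk from 12 libraries, and groups were taken from the labels. The authors deposited read counts for Ensembl gene identifiers in 1 table, of which 0 columns were left unused. Per the submitters' processing notes, FastQC 0.11.2, STAR 2.5.0b and HTSeq 0.6.1 were used. Not given in the sources used here are the genome build, the annotation, the strand setting and read filters. Counts that HTSeq assigned to no gene stayed out of library sizes and tests. Symbols came from GENCODE M21 (53274 of 53465 identifiers matched).

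The test was edgeR 4.0.16 (R 4.3.3; quasi-likelihood fit, TMM factors, two-sided) on all 12 libraries with 4 group means, after a filter of a mean of at least 5 CPM over the 6 ST-HSC libraries. It had 8 residual degrees of freedom and a common biological coefficient of variation of 0.102. The filter was chosen because the median log2 change under the looser filter followed the level, from 0.146 under 1 CPM to -0.144 over 100 CPM. P-values were Benjamini-Hochberg adjusted over all 10373 genes with a threshold of 0.05. On simulated counts with 200 changed genes among 10373, 82.1%, 98.5% and 100% of 1.5-, 2- and 4-fold changes were recovered. There 9.22% of calls were false, more than the 5% aimed at, so single calls near the threshold call for caution. In the data 38.7% of genes were called, far more than were changed in the simulation. The 9.22% is therefore not the error of the calls reported here. Libraries of a group were compared, and none was a duplicate (chi-square per degree of freedom from 6.30 to 37.2).

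The members and lists were chosen with earlier results of these data known. The rule for named genes took the 12 largest rises and falls outside the stress lists whose control and NR libraries are apart, the 6 largest rises and falls in CPM, up to 4 called members with the smallest p of each list, the 5 genes with the smallest adjusted p of the interaction, all NAD genes tested and the sort markers. Some genes it takes are not reported here. Alternatives were other scalings, DESeq2 1.42.0, limma-voom (limma 3.58.1) with quality weights, edgeR's own filter, no filter, a mean of at least 20 CPM, the ST-HSC libraries alone, the share of reads in no gene as a covariate, the replicate number as a block, and each library left out in turn.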

Additional observations from a re-analysis of the deposited data

Results flagged for a closer look

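For 13 named genes the effect of NR differed between ST-HSCs and LT-HSCs in a test of the difference itself (edgeR interaction, adjusted p under 0.05). The differences below are ST-HSC minus LT-HSC effects on the log2 scale. They were positive for S100a4 (1.38), Tinagl1 (1.31), Gsn (0.82), mt-Rnr2 (0.67), Irf1 (0.59), Laptm5 (0.47), Ncoa4 (0.46) and Psap (0.34). They were negative for Vwf (-1.15), Grb10 (-0.92), Serpinf1 (-0.81), Tgfbr3 (-0.74) and Cntrl (-0.50).

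In most of these genes NR moved both cell types in 1 direction. S100a4 changed by 0.95 ± 0.18 in LT-HSCs, Psap by 0.25 ± 0.04, Ncoa4 by 0.19 ± 0.06 and Tgfbr3 by -0.59 ± 0.10, each smaller than in ST-HSCs. Serpinf1 fell in both (-1.20 ± 0.11 in LT-HSCs and -2.01 ± 0.12 in ST-HSCs). The mitochondrial ribosomal RNA mt-Rnr2 rose in ST-HSCs (0.57 ± 0.09) and had a change of -0.09 ± 0.08 in LT-HSCs (edgeR adjusted p = 0.44). The other mitochondrial ribosomal RNA, mt-Rnr1, which was named after its values were seen, rose by 0.78 ± 0.16 in ST-HSCs. The share of counts in mitochondrial genes, to which both belong, was 0.68% to 0.717% in control and 0.833%, 0.769% and 0.687% in NR libraries 1, 2 and 3 of ST-HSCs, so the groups overlapped in it. With the replicate number as a block the difference of S100a4 did not pass (1.36 ± 0.27, edgeR adjusted p = 0.0519), and those of the other 12 genes passed.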

How the results depend on the processing

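Higher genes numbered 1934, and 1155 with edgeR's looser filter. Lower genes numbered 2077, and 1321 with no filter. With each ST-HSC library left out in turn 1514 to 1734 were higher and 1627 to 1882 lower. The count of genes whose effect differs between the cell types was 37, but 228 with DESeq2, 72 with limma-voom, 2 with the looser filter, 22 with the share of unassigned reads as a covariate, and from 4 (without control library 1) to 261 (without NR library 2) with a library left out. The cause was not tested. No direction of a called named gene reversed under these settings. Of 203 called named genes 10 each lost the call with the looser filter and with no filter, 2 with DESeq2, 1 with upper-quartile factors and 2 to 4 with a library left out. The share of higher genes among the called was 48.2%, 57.4% with upper-quartile factors, 50.5% with relative log expression factors, 34.5% with the looser filter and 50.4% with DESeq2. Counts of list members at a mean of at least 20 CPM cover fewer genes.

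No label says that the replicate numbers pair the samples, and the main fit did not use them. In ST-HSCs the deviations of same-numbered control and NR libraries correlated at 0.292, 0.0804 and 0.256. Those of differently numbered libraries correlated at -0.315 to 0.0912, the highest for control library 2 with NR library 3. Whether the numbers mark a shared batch was not tested. With the replicate number as a block 2037 genes were higher and 2201 lower, of which 3955 were also called without it. Over all 4 groups, same-numbered libraries correlated at 0.238 to 0.517 between control and NR in LT-HSCs and at 0.311 to 0.643 between both NR groups, but at 0.0404 to 0.126 between both control groups. With that block the effect differed between the cell types in 46 genes, of which 34 were among the 37 without it, and in 0 of the 59 G2 and mitosis genes with edgeR (51 at an unadjusted p under 0.05). Changes of low genes are limited by depth and by reads outside genes, most in NR library 3.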

Other observations

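Long noncoding genes were more often higher than lower. Of 238 tested, 62 were higher (26.1%) and 23 lower (9.66%), with a median log2 change of 0.14, beside 18.5% and 20.4% of 10023 protein-coding genes. Among them were host genes of small nucleolar RNAs, a group picked after the values were seen. Of 9 tested, 6 were higher and 3 did not pass, with a median of 0.36. Gas5, which also accumulates when growth stops, stood at 321, 332 and 318 CPM in the control libraries and 524, 464 and 415 CPM in the NR libraries (0.53 ± 0.07, edgeR adjusted p = 2.8e-05), and Snhg15 stood at 43.6, 45.5 and 43.5 CPM without NR and 77.6, 65.7 and 67.2 CPM with it (0.67 ± 0.09, edgeR adjusted p = 5.1e-05). The groups did not overlap in either gene. Snhg20 (0.47 ± 0.07), Snhg8 (0.42 ± 0.11), Snhg5 (0.36 ± 0.08) and Snhg6 (0.31 ± 0.11) rose as well, while most genes that build ribosomes fell.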
